A study of Mus musculus with 9 samples.

Results

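Tnfaip3, Tnip1, Tnip3, Cyld, Birc2, Birc3, Traf1, Traf2, Traf3 and Otulin encode the ubiquitin-editing enzyme A20, its binding partners, and the TRAF adaptors, ubiquitin ligases and deubiquitinases that act around it in NF-κB signalling. These 10 genes were chosen by name, with no threshold on a measured value, and all 10 were found among the 54059 genes of the expression table. All 10 also lay among the 11450 genes whose mean over the 9 libraries was at least 1 FPKM (fragments per kilobase of transcript, scaled to the depth of the library), the set used for every test. RNA of peritoneal macrophages from C57BL/6 mice, aged 8 weeks by their labels, was sequenced in 3 groups of 3 libraries. The wild-type group and the M-Shp2-/- group (genotype label SHP2lyz2-/-) differed in genotype, and the SHP099 group was of wild-type genotype. In every group, cells were collected 3 days after starch broth had been injected into the peritoneum, the adherent cells were kept overnight, and they were exposed for 4 h to imiquimod (IMQ), an agonist of TLR7. The SHP099 group first received 10 µM of SHP099, an allosteric inhibitor of the phosphatase SHP2, for 2 h. IMQ was used at 10 µg/ml in the wild-type and SHP099 groups, and its dose for the M-Shp2-/- libraries is not given in the sources used here. The treatments with IMQ and SHP099 come from the study's text and not from the labels, which do give the 3 days after starch broth. M-Shp2-/- mice carried floxed alleles of Shp2 (gene Ptpn11) and Lyz2-cre, which acts in monocytes, mature macrophages and granulocytes. Whether the wild-type mice carried either allele is not given in the sources used here. No library without IMQ was analysed, so induction by IMQ was not measured. The labels do not say whether replicates were separate mice, and the p-values therefore measure the spread among these libraries only.

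TLR7 signals through MyD88 and IRAK kinases to ubiquitin ligases of the TRAF family, which build ubiquitin chains that recruit the kinases TAK1 and IKK and so activate NF-κB. Linear chains are added by the LUBAC complex and removed by OTULIN. A20 (Tnfaip3) trims and replaces such chains, the ABIN proteins (Tnip1, Tnip3) bind ubiquitin and A20, and CYLD cleaves chains on TRAF proteins and NEMO. TRAF2, TRAF3 and the ligases cIAP1 (Birc2) and cIAP2 (Birc3) form a complex that degrades the kinase NIK and thereby restrains noncanonical NF-κB, while TRAF1 lacks the RING domain of its relatives and modifies TRAF2 complexes. In macrophages, Tnfaip3, Tnip1, Tnip3, Birc3 and Traf1 are known as NF-κB target genes, so that these proteins form a feedback arm, and they are called the induced genes here as background.

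RefSeq gave 12 start sites for the 10 genes (mouse build GRCm38.p6), and the 250 bases before each start were searched on both strands for the NF-κB consensus of 10 letters. The consensus was present in 5 of the 12 windows, belonging to 5 of the 10 genes, and in 3.90% of the 32851 windows of all genes. Among the 5 induced genes, 3 had a match (Tnfaip3, Tnip1 and Tnip3), and among the other 5 genes 2 had a match (Cyld and Traf3). The windows of Birc3 and Traf1 held no match, which says only that these letters are not in those 250 bases. The matching stretches of all 5 genes are printed, so that those of the induced genes can be read beside those of Cyld and Traf3. Each stretch is written on the strand of its gene, the capitals mark the letters that match, and up to 25 bases stand on each side. The stretches of Tnfaip3 lie on the minus strand at chr10:19015501-19015560 and chr10:19015411-19015447, ahead of the first of its 2 starts. That of Tnip1 lies on the minus strand at chr11:54962962-54963023 and holds 3 overlapping matches. On the plus strand are those of Tnip3 at chr6:65590319-65590378, Cyld at chr8:88696848-88696907 and Traf3 at chr12:111166335-111166369.
Tnfaip3, far match: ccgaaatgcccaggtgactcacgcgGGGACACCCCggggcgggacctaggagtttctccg
Tnfaip3, near match: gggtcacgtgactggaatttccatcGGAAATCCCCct
Tnip1: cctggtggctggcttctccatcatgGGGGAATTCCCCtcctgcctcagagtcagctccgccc
Tnip3: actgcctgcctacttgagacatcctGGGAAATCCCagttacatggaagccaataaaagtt
Cyld: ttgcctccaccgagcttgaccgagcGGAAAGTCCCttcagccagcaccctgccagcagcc
Traf3: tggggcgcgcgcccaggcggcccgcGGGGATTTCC
A match describes letters and is not evidence of a bound factor.

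The same windows also differed in their count of the letters CG. Tnip1 had 3, Tnip3 had 0, Birc3 had 6 and Traf1 had 4, around or under the median of 6 over all windows, whereas the first start of Tnfaip3, which holds its matches, had 22 and its second start had 6. Cyld had 18, Traf2 had 19, Otulin had 23, Traf3 had 49, and the starts of Birc2 had 31 and 19. Birc2 and Birc3, whose products are close relatives, are neighbours on chromosome 9, on the same strand and 11634 bases apart. No exon of the 10 genes overlapped an exon of another annotated gene.

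**Figure D1:**
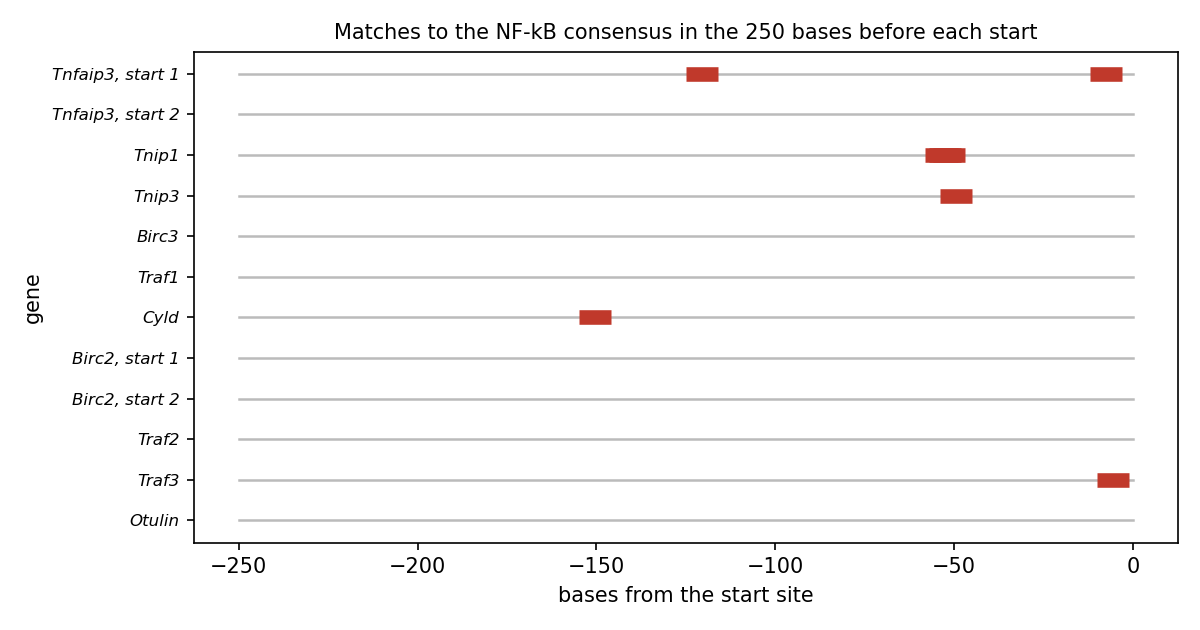
Position of matches to the NF-κB consensus in the 250 bases before each of 12 RefSeq starts of the 10 genes (x axis, bases from the start; y axis, gene and start). Red bars are matches and grey lines the windows searched; 5 windows hold a match.

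Sequencing depth, read from the steps of the FPKM values, ranged from 39842591 to 50980864 reads per library, and the least sequenced of the 10 genes, Birc2, still had at least 1490 reads in each. The libraries did not all lie equally close to their groups. M-Shp2-/- replicate 3 had a mean correlation of 0.961 with the other libraries of its group, across genes on the log2 scale, against 0.973 to 0.990 for the other 8 libraries. M-Shp2-/- replicates 1 and 2 correlated with each other at 0.992. Genes are not independent replicates, and these coefficients are a description. Some results are therefore also given without M-Shp2-/- replicate 3. Some are also given without wild-type replicate 3, the library with the highest Tnfaip3 and Traf1. It was picked by those values, and leaving it out can only raise the differences of those genes from wild type.

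Ptpn11, which encodes SHP2, checked the genotype labels. Its level was 45.8, 44.0 and 40.0 FPKM in wild type, 18.6, 17.8 and 18.9 FPKM in M-Shp2-/-, and 43.0, 42.1 and 39.6 FPKM with SHP099. All 3 M-Shp2-/- libraries lay below all 6 others, while wild type and SHP099 overlapped. On the scale of log2(FPKM + 1), Ptpn11 fell by 1.19 in M-Shp2-/- against wild type (95% confidence interval -1.42 to -0.96, adjusted p = 0.0168, limma, n = 3 per group). The adjusted p lay between 0.105 and 0.196 without wild-type replicate 1 or 2 or without M-Shp2-/- replicate 1 or 2, with estimates of -1.15, -1.17, -1.19 and -1.16. Against wild type, the SHP099 group differed in Ptpn11 by -0.05 (-0.26 to 0.15), and by -0.20 (-0.35 to -0.05, adjusted p = 0.131) after median-of-ratios scaling. FPKM over the whole gene includes exons outside a floxed region, so the remaining level in M-Shp2-/- does not measure intact transcript.

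Markers of cell types were then read in every library, as sums of FPKM. Complete separation of groups was also counted gene by gene. Of all 11450 genes, M-Shp2-/- was so separated from wild type downward for 3.07% and upward for 16.0%. For SHP099 against wild type the shares were 6.77% and 27.9%, and for M-Shp2-/- against SHP099 9.76% and 7.90%. The 7 macrophage markers (Adgre1, Csf1r, Cd68, Lyz2, Itgam, Mertk and Fcgr1) were present throughout, with sums of 9416, 12033 and 9694 in wild type, 6890, 6879 and 7192 in M-Shp2-/-, and 11009, 12071 and 12560 with SHP099. Lyz2, the most abundant of them, carries the Cre in M-Shp2-/- mice. Without Lyz2 the sums ranged from 1743 to 1976 in wild type, from 1785 to 2136 in M-Shp2-/- and from 1661 to 1844 with SHP099, and the groups overlapped. Single macrophage markers did separate. Against wild type, 2 of the 7 were lower in all M-Shp2-/- libraries (Lyz2 and Mertk), and with SHP099 1 was lower (Cd68) and 1 higher (Csf1r, the CSF1 receptor, at 181 to 211 FPKM against 58.2 to 111). Against SHP099, 3 of the 7 were lower in all M-Shp2-/- libraries (Lyz2, Mertk and Csf1r). Mertk was separated there only by 4.35 against 4.40 FPKM, and Csf1r by 176 against 181 FPKM. With SHP099 against wild type, Cd68 was separated by 1271 against 1294 FPKM. The 5 stromal markers, with Col1a1 the most abundant, summed to 63.8, 302 and 39.7 in wild type, 135, 51.4 and 585 in M-Shp2-/-, and 361, 137 and 101 with SHP099. M-Shp2-/- replicate 3 was highest there and in the 5 B-cell markers, where its sum was 178, of which Ighm gave 175. Without Ighm its B-cell sum was 2.55, below the 15.0 and 7.48 of M-Shp2-/- replicates 1 and 2. In the other libraries the B-cell sum was 9.90, 16.5 and 47.0 in wild type, 34.9 and 17.3 in M-Shp2-/-, and 19.7, 13.6 and 27.7 with SHP099, and the groups overlapped. Without Ighm the SHP099 sums of 0.455, 0.764 and 1.28 lay below those of wild type at 3.93, 2.94 and 2.15 and below all those of M-Shp2-/-. Gene by gene, 3 of the 5 B-cell markers were lower in all SHP099 libraries than in wild type (6.77% of all genes), Cd79a only by 0.5323 against 0.5325 FPKM. In M-Shp2-/- 2 were higher than in wild type (16.0% of all genes) and 3 higher than with SHP099 (7.90%).

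Mast cells are residents of the peritoneum, and their 5 markers, led by Kit, summed to 6.10, 4.76 and 6.01 in wild type, 2.76, 3.19 and 1.60 in M-Shp2-/-, and 0.675, 0.564 and 0.970 with SHP099. The 3 groups did not overlap in this sum, but gene by gene all M-Shp2-/- libraries were below wild type for 1 of the 5 markers, all SHP099 libraries were below wild type for 4, and M-Shp2-/- was above SHP099 for 1. Kit alone gave 2.94 of the sum in M-Shp2-/- replicate 2, where Tpsb2 was at 0.0450 and Cma1 at 0.0225, and without Kit the M-Shp2-/- sums of 1.36, 0.252 and 1.43 overlapped those of SHP099 at 0.320, 0.279 and 0.614. The 5 dendritic-cell markers, led by Ccr7, summed to 6.25, 4.08 and 3.75 in wild type, 7.56, 5.07 and 3.54 in M-Shp2-/-, and 1.498, 1.03 and 1.35 with SHP099. Both sums were lowest in the SHP099 libraries. For dendritic cells, 2 of the 5 markers were lower in all SHP099 libraries than in wild type, and without Ccr7 these groups overlapped. Against SHP099, 3 of the 5 were higher and 1 lower in all M-Shp2-/- libraries. Without Ccr7 the M-Shp2-/- sums of 1.77, 1.15 and 1.54 still lay above those of SHP099 at 0.784, 0.725 and 0.619. The 6 neutrophil markers stayed at sums of 2.99 to 5.15, led by Camp, with the M-Shp2-/- libraries (5.02, 4.85 and 5.15) above the rest through Camp, and without it the groups overlapped. The defining neutrophil gene Ly6g was listed at 0 in 7 of the 9 libraries. The 6 T-cell markers, led by Cd3g, summed to 0.908, 2.20 and 6.39 in wild type, 0.694, 0.417 and 3.46 in M-Shp2-/-, and 6.11, 4.86 and 4.24 with SHP099. All M-Shp2-/- sums were below all SHP099 sums, as were 3 of the 6 genes, and both groups overlapped wild type in the sum. Of the 6 genes, 2 (Cd3e and Cd3g) were higher in all SHP099 libraries than in wild type, beside 27.9% of all genes. Cd3e was separated only by 0.6117 against 0.6112 FPKM. The 5 mesothelial markers, led by Wt1, had sums of 1.82 to 9.54, and the groups overlapped. In bulk RNA, fewer cells of a type and less RNA per cell cannot be told apart, and the part of these markers in the differences between groups was not tested.

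In wild type, the levels of the 10 genes fell into steps. As deposited, the order of mean FPKM was Tnfaip3 (420 ± 151, SD, n = 3), Tnip1 (385 ± 43.8), Birc3 (176 ± 23.1), Traf1 (160 ± 37.3), Otulin (41.7 ± 7.18), Tnip3 (33.3 ± 4.84), Traf2 (22.3 ± 1.93), Traf3 (19.4 ± 1.47), Birc2 (19.4 ± 1.56) and Cyld (9.78 ± 1.06). The libraries of neighbours in this order did not overlap between Tnip1 and Birc3, Traf1 and Otulin, Tnip3 and Traf2, or Birc2 and Cyld. The other neighbours overlapped. The upper places thus went to induced genes, while the mean of Tnip3, also an induced gene, lay below that of Otulin, with overlapping libraries. The deposited FPKM use the mean transcript length of each gene. Per kilobase of the longest annotated transcript, Tnip1 (232 ± 26.4) came before Tnfaip3 (188 ± 67.7) and Traf1 (83.3 ± 19.4) before Birc3 (72.3 ± 9.50), each pair overlapping, and Traf2 came before Tnip3.

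**Figure D2:**
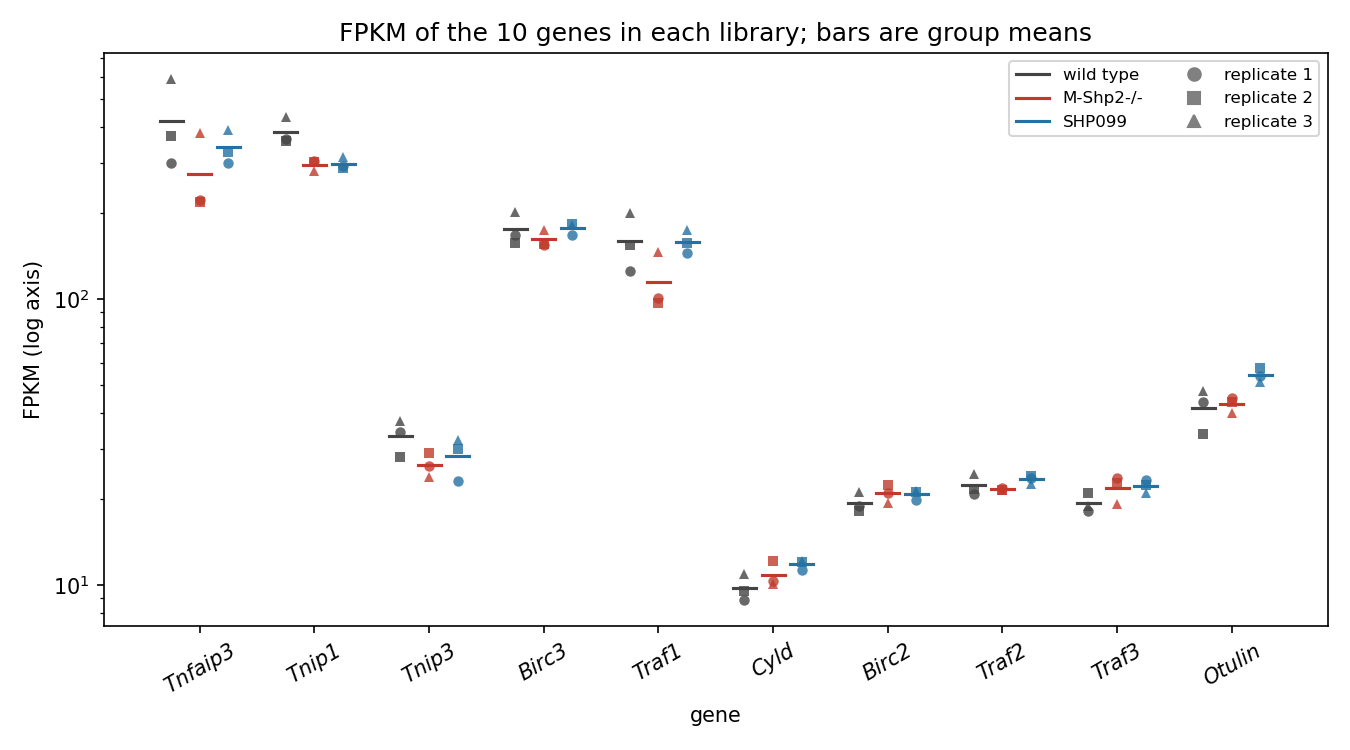
FPKM of the 10 genes (x axis) in each of 9 libraries, on a log axis; bars are group means (n = 3), colours are groups and symbols replicate numbers. Tnfaip3 spans 299 to 589 FPKM within wild type, and Tnip1 lies lower in all 6 M-Shp2-/- and SHP099 libraries than in the 3 wild-type ones.

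A20 and its partners come first. Tnfaip3 (ENSMUSG00000019850) was at 299, 372 and 589 FPKM in wild type, 223, 219 and 382 FPKM in M-Shp2-/-, and 299, 328 and 392.4 FPKM with SHP099. Replicate 3 was the highest library of each group, the groups overlapped, and the spread within wild type exceeded the distance between group means of 420 ± 151, 275 ± 93.1 and 340 ± 47.8 FPKM. Tnip1 (ENSMUSG00000020400), the gene of ABIN1, was at 363, 357 and 436 FPKM in wild type, 304, 302 and 281 FPKM in M-Shp2-/-, and 292, 287 and 316 FPKM with SHP099. Every M-Shp2-/- and SHP099 library was below every wild-type library, the only one of the 10 genes with this pattern in the FPKM as deposited, which 1.90% of all genes had. Both groups were set against the same wild-type libraries there. Tnip3 (ENSMUSG00000044162), the gene of ABIN3, was at 34.3, 28.0 and 37.5 FPKM in wild type, 26.1, 28.9 and 23.9 FPKM in M-Shp2-/-, and 23.0, 29.8 and 32.1 FPKM with SHP099. M-Shp2-/- and SHP099 overlapped each other, and both overlapped wild type through its lowest library.

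Among the TRAF adaptors, Traf1 (ENSMUSG00000026875) was at 126, 155 and 200 FPKM in wild type, 101, 96.7 and 147 FPKM in M-Shp2-/-, and 145, 158 and 175 FPKM with SHP099. As with Tnfaip3, replicate 3 was the highest of each group, and M-Shp2-/- replicates 1 and 2 were the lowest of the 9 libraries. Traf2 (ENSMUSG00000026942), the ligase adaptor of TNF receptors, stayed between 20.9 and 24.5 FPKM in all 9 libraries, and Traf3 (ENSMUSG00000021277), which also restrains NIK, between 18.2 and 23.7 FPKM. The M-Shp2-/- libraries of Traf2 lay within 21.5 to 21.8 FPKM, below the SHP099 libraries at 22.6 to 24.0 FPKM. Birc3 (ENSMUSG00000032000), for cIAP2, was at 168, 158 and 202 FPKM in wild type, 154, 156 and 175 FPKM in M-Shp2-/-, and 168, 183 and 181 FPKM with SHP099. Birc2 (ENSMUSG00000057367), for cIAP1, ranged only from 18.1 to 22.5 FPKM. All groups of both cIAP genes overlapped.

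Of the deubiquitinases, Otulin (ENSMUSG00000046034), the enzyme specific for linear chains, was at 43.8, 33.7 and 47.6 FPKM in wild type, 45.0, 43.7 and 40.1 FPKM in M-Shp2-/-, and 53.7, 57.3 and 51.4 FPKM with SHP099. All 3 SHP099 libraries were above all 6 others. Of all genes, 27.9% had every SHP099 library above wild type, and 9.76% had every M-Shp2-/- library below SHP099. Cyld (ENSMUSG00000036712), which cuts chains on NEMO and TRAF proteins, was at 8.85, 9.56 and 10.9 FPKM in wild type, 10.3, 12.1 and 10.1 FPKM in M-Shp2-/-, and 11.2, 12.03 and 12.1 FPKM with SHP099. Its SHP099 libraries were above the wild-type ones and overlapped those of M-Shp2-/-.

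**Figure D3:**
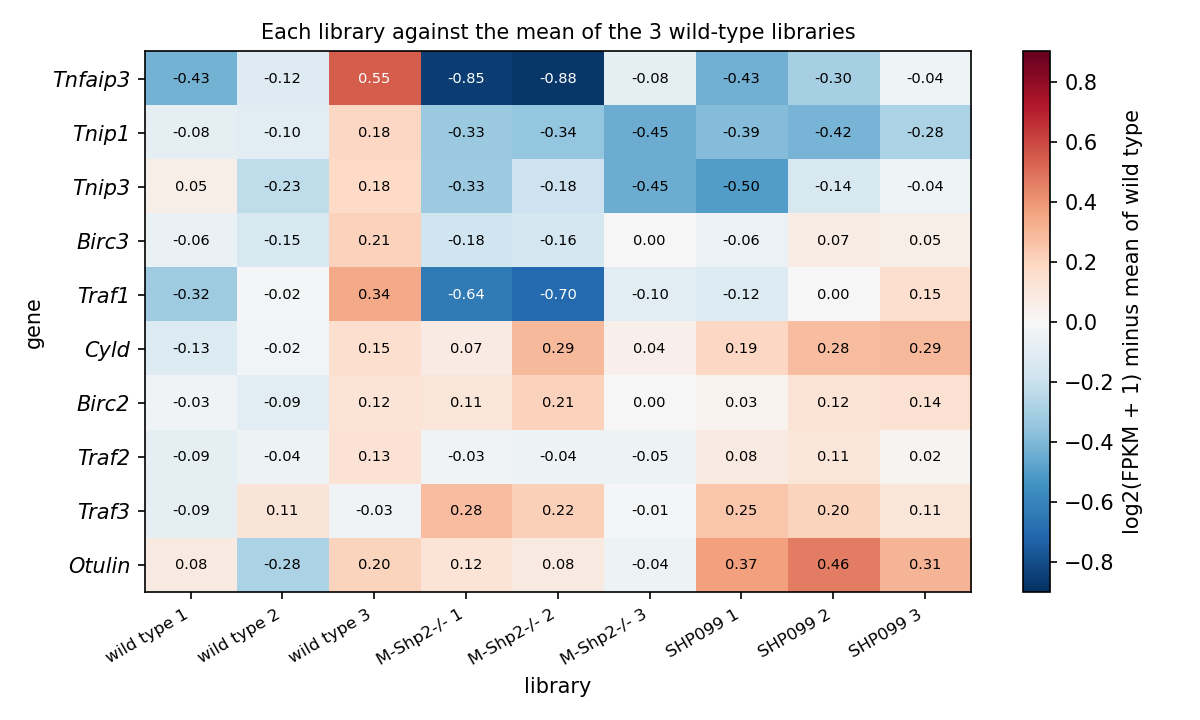
Each library (x axis) against the mean of the 3 wild-type libraries for each of the 10 genes (y axis), as differences of log2(FPKM + 1) printed in the cells; red is higher and blue lower. M-Shp2-/- replicates 1 and 2 are at -0.85 and -0.88 for Tnfaip3 and -0.64 and -0.70 for Traf1, and M-Shp2-/- replicate 3 at -0.08 and -0.10.

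M-Shp2-/- against wild type asks what loss of Shp2 in macrophages does to these genes under IMQ. None of the 10 genes passed an adjusted p of 0.05 in limma, where 10 of the 11450 genes passed (0.0873% of genes), all of them lower in M-Shp2-/-. At an unadjusted p under 0.05, 1 of the 10 genes was counted (Tnip1), beside 10.5% of all genes, and voom on reads recovered from the FPKM also called 0. The 5 induced genes all had estimates below 0, with a median log2 difference of -0.38, and the other 5 genes a median of 0.11, against 0.15 over all genes. After median-of-ratios scaling, which brings the median of all genes to 0.01, these medians were -0.53 and -0.04, so that the sign for the other genes depends on the scaling. In that scaling 9 of the 10 genes were below 0, and as deposited 6 of 10. Over the 10 genes the median was -0.08 as deposited and -0.23 after the scaling.

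The largest estimate among the 10 genes was that of Tnfaip3, -0.60 on the log2 scale (95% confidence interval -1.35 to 0.14, adjusted p = 0.490), or -0.75 relative to the median of all genes. Traf1 followed with -0.48 (-1.01 to 0.05, adjusted p = 0.478), and -0.63 relative to that median. Both genes had M-Shp2-/- replicate 3 close to wild type. Without that library their estimates were -0.87 (adjusted p = 0.225) and -0.67 (adjusted p = 0.225), and 8 genes of all passed (0.0699% of genes). Without wild-type replicate 3 they were -0.33 and -0.31, and 5 genes of all passed (0.0437% of genes). The ABIN genes were more even: Tnip1 differed by -0.38 (-0.63 to -0.12, adjusted p = 0.454), or -0.52 relative to all genes, and Tnip3 by -0.32 (-0.65 to 0.01, adjusted p = 0.478). Tnip1 was the 1 gene of 10 whose M-Shp2-/- libraries were all below wild type, as for 3.07% of all genes, and 0 of 10 had all of them above, against 16.0%. For Birc3, Cyld, Birc2, Traf2, Traf3 and Otulin the estimates ranged from -0.11 to 0.16, and every interval spanned 0. Those of Cyld, Birc2 and Otulin moved to -0.01, -0.04 and -0.10 after median-of-ratios scaling.

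SHP099 against wild type asks what inhibition of SHP2 does to the same genes, and it shares its wild-type libraries with the comparison above. Here 797 of 11450 genes passed an adjusted p of 0.05 (6.96% of genes), 276 lower and 521 higher, and after median-of-ratios scaling 575 passed, 375 lower and 200 higher. The count and its balance changed with the library left out, and a smaller group can by itself let fewer genes pass. Without SHP099 replicate 1, 2 or 3, 90, 47 and 116 genes passed, of which 69, 37 and 74 were lower, and without wild-type replicate 1 or 2, 284 and 399 passed, of which 151 and 173 were lower. Of the 10 genes 0 passed, in limma on either scaling and in voom. Tnip1 and Otulin were the 2 genes at an unadjusted p under 0.05, against 26.7% of all genes. Voom counted 3, against 26.6% of all genes, and median-of-ratios scaling left 1 (Tnip1), against 22.6% of all genes. Tnip1 differed by -0.36 (95% confidence interval -0.60 to -0.13, adjusted p = 0.0731), or -0.49 relative to the median of all genes, which was 0.13. Otulin differed by 0.38 (0.07 to 0.70, adjusted p = 0.127), or 0.25 relative to that median, and by 0.24 (-0.16 to 0.64) after median-of-ratios scaling, and its wild-type libraries were spread more widely than its SHP099 libraries. Cyld differed by 0.25 (-0.01 to 0.51, adjusted p = 0.198), or 0.13 relative to that median.

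Complete separation of the SHP099 and wild-type libraries was found downward for 1 of the 10 genes (Tnip1), against 6.77% of all genes, and upward for 2 (Cyld and Otulin), against 27.9%. These are shares of a list of 10 beside shares of the whole table, and no test separates them. Tnfaip3 differed by -0.26 (-0.82 to 0.31) and Traf1 by 0.01 (-0.39 to 0.41), both wide intervals. Leaving out wild-type replicate 3, the library with the highest Tnfaip3 and Traf1, gave 0.02 for Tnfaip3 and 0.18 for Traf1, while 1273 genes of all passed (11.1% of genes). Tnip3 was at -0.23, and Birc3, Birc2, Traf2 and Traf3 ranged from 0.02 to 0.19. The medians were -0.23 for the 5 induced genes and 0.19 for the other 5 as deposited, and -0.37 and 0.05 after median-of-ratios scaling. Wild-type replicate 3 was the highest wild-type library for all 5 induced genes, so leaving it out had to raise each of these estimates. Without that library their middle value was that of Tnfaip3, 0.02, between Tnip3 at -0.14 and Birc3 at 0.13. The median of all genes was then 0.06. Over all 10 genes the median was 0.05 as deposited and -0.10 after the scaling, with 3 and 7 genes below 0. Birc3, Traf1, Birc2 and Traf2 moved to -0.12, -0.13, -0.04 and -0.07 in that scaling.

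M-Shp2-/- against SHP099 sets the deletion beside the inhibitor, and IMQ dose cannot be compared between them from the sources used here. With all 6 libraries, 8 of 11450 genes passed (0.0699% of genes) and 0 of the 10 genes, in limma and in voom. Traf1 and Otulin, 2 of 10, were at an unadjusted p under 0.05, against 12.6% of all genes. Traf1 differed by -0.49 (95% confidence interval -0.89 to -0.09, adjusted p = 0.347) and Otulin by -0.33 (-0.52 to -0.13, adjusted p = 0.278). The M-Shp2-/- libraries of Traf2 and Otulin, 2 of 10, were all lower, as for 9.76% of all genes, and 0 of 10 were all higher, against 7.90%. Tnfaip3 differed by -0.35 (-0.89 to 0.20), and Tnip1, which was below wild type in both groups, by -0.01 (-0.19 to 0.17). The median over the 10 genes was -0.11, with 9 below 0, and -0.12 with 10 below 0 after median-of-ratios scaling, beside medians of 0.02 and 0.01 over all genes. The induced genes had a median of -0.13 and the other genes of -0.11.

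M-Shp2-/- replicate 3 decided the calls of this comparison. Without it, the 2 remaining M-Shp2-/- libraries against 3 SHP099 libraries gave 2277 genes at an adjusted p of 0.05 (19.9% of genes) and 3 of the 10 genes. Tnfaip3 then differed by -0.61 (adjusted p = 0.0173), Traf1 by -0.68 (adjusted p = 0.00594) and Otulin by -0.28 (adjusted p = 0.0393). An unadjusted p under 0.05 was reached by 4 of the 10 genes and by 36.0% of all genes. In that replicate Tnfaip3 was at 382 FPKM and Traf1 at 147 FPKM, against at most 223 and 101 FPKM in M-Shp2-/- replicates 1 and 2, and the stromal and B-cell sums were the highest of the 9 libraries, the B-cell sum through Ighm alone, since without Ighm it was 2.55 against 15.0 and 7.48 in M-Shp2-/- replicates 1 and 2. The part of these markers in the values was not tested.

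**Figure D4:**
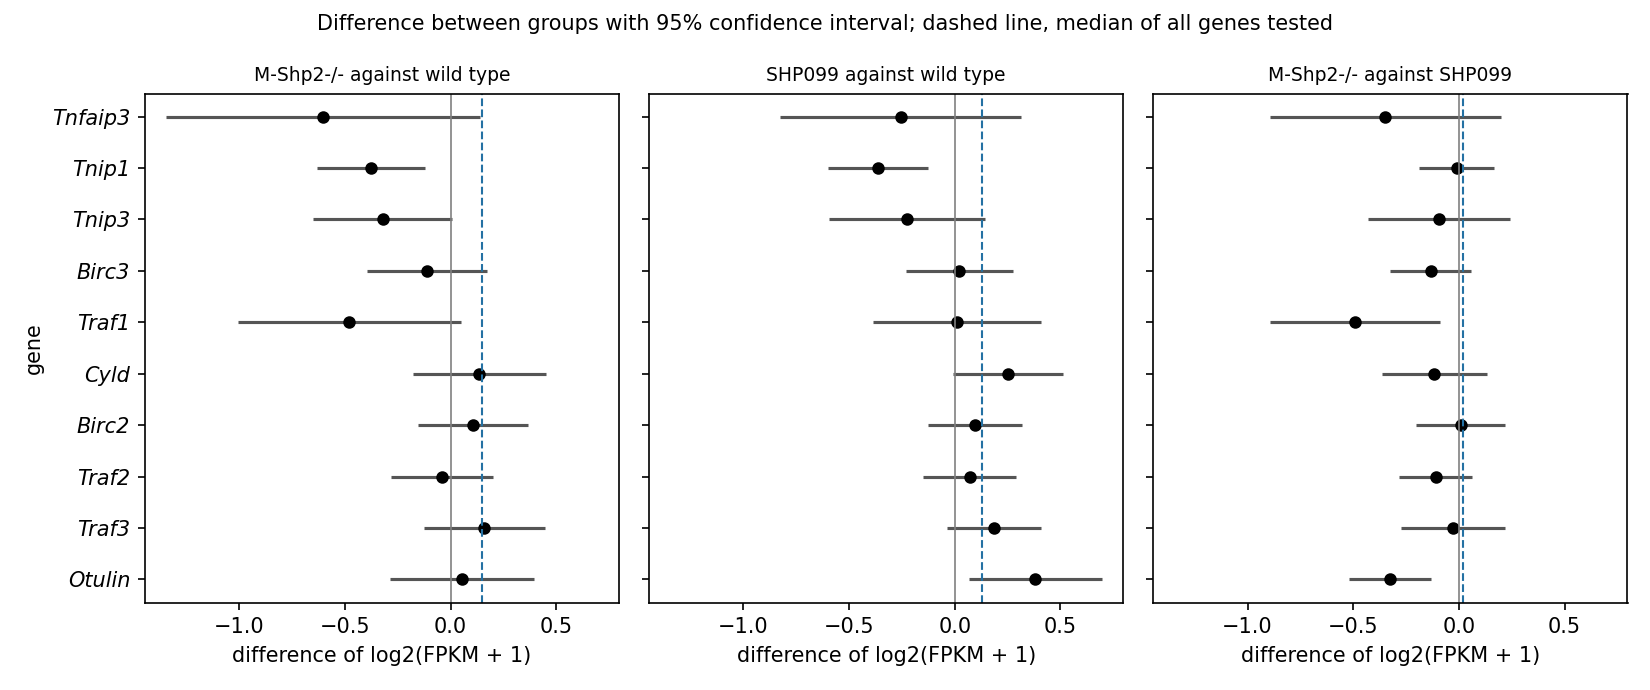
Difference of log2(FPKM + 1) between groups (x axis) for the 10 genes (y axis) in each comparison; points are limma estimates, bars 95% confidence intervals (n = 3 per group) and dashed lines the median over 11450 genes. The interval leaves out 0 for Tnip1 in both comparisons with wild type, for Otulin in both comparisons with SHP099, and for Traf1 in M-Shp2-/- against SHP099, though for Otulin against wild type it spans 0 after median-of-ratios scaling; these are unadjusted intervals, and 0 genes passed the adjusted test.

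Related genes were also compared inside each library. A ratio of FPKM in a library does not depend on how libraries are scaled, whereas the log2 ratios tested here were taken after adding 1 to each FPKM and move somewhat with that pseudocount. With 3 libraries on each side, the smallest p that an exact two-sided permutation test can reach is 0.1. Birc3 stood above its neighbour Birc2 by a FPKM ratio of 8.84, 8.72 and 9.55 in wild type, 7.36, 6.96 and 9.02 in M-Shp2-/-, and 8.47, 8.68 and 8.47 with SHP099. M-Shp2-/- replicates 1 and 2 had the lowest ratios. The log2 ratio differed from wild type by -0.22 in M-Shp2-/- (exact p = 0.3) and by -0.08 with SHP099 (exact p = 0.2), and between M-Shp2-/- and SHP099 by -0.14 (exact p = 0.4). For SHP099 against wild type, whose FPKM ratios did not overlap, the exact p was 0.1 with a pseudocount of 0.1 and 0.5 with one of 5. Without wild-type replicate 3 that difference was -0.03 (exact p = 0.3). Without M-Shp2-/- replicate 3 the differences of M-Shp2-/- were -0.33 from wild type and -0.25 from SHP099, each at an exact p of 0.1, which is also the smallest that 2 against 3 libraries allow. Traf1 stood above Traf2, the partner it binds, by 6.02, 7.19 and 8.15 in wild type, 4.63, 4.48 and 6.81 in M-Shp2-/-, and 6.12, 6.57 and 7.73 with SHP099. Wild type and SHP099 overlapped, and M-Shp2-/- overlapped them through its replicate 3. Differences of the log2 ratio were -0.44 (exact p = 0.2) and -0.06 (exact p = 0.8) against wild type, and -0.38 between M-Shp2-/- and SHP099 (exact p = 0.3). Without that library M-Shp2-/- differed by -0.63 from wild type and by -0.57 from SHP099, both at the smallest exact p of 0.1. Tnip3 reached 0.0784 to 0.104 of Tnip1 in the 9 libraries, with log2 differences of 0.05, 0.14 and -0.08 (exact p = 0.5, 0.3 and 0.6). Without SHP099 replicate 1, SHP099 differed from wild type by 0.26 and M-Shp2-/- from SHP099 by -0.21, each at an exact p of 0.2.

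Il6, the gene of the cytokine interleukin-6, served as a yardstick and was chosen after its values were seen. It was at 221, 237 and 258 FPKM in wild type, 51.3, 54.1 and 51.3 FPKM in M-Shp2-/-, and 25.9, 18.3 and 58.4 FPKM with SHP099. On the log2 scale Il6 differed from wild type by -2.17 in M-Shp2-/- and by -2.93 with SHP099. The ratio of Il6 to Tnfaip3 in a library was 0.738, 0.637 and 0.438 in wild type, 0.231, 0.247 and 0.134 in M-Shp2-/-, and 0.0867, 0.0559 and 0.149 with SHP099. Every wild-type library was above every other. On the log2 scale the ratio differed from wild type by -1.56 and -2.67, and by 1.11 between M-Shp2-/- and SHP099, and these values of Il6 are given without a test because it was picked for its levels.

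The wider pathway was read in 10 lists with 55 genes, of which 52 were tested, since Traf5, Ube2v1 and Rnf125 were under 1 FPKM on average. In SHP099 against wild type 1 of the 52 rose and 1 fell (limma, adjusted p at most 0.05), beside 6.96% of all genes, while 0 passed between M-Shp2-/- and wild type and 0 between M-Shp2-/- and SHP099. Unadjusted p-values under 0.05 were 15, 4 and 10 of 52 in these comparisons, beside 26.7%, 10.5% and 12.6% of all genes. Without wild-type replicate 3, 10 of the 52 passed in SHP099 against wild type, beside 11.1% of all genes. Ikbkb, Ikbke, Nfkb2 and Traf6 were then lower, and Optn, Peli3, Relb, Ripk2, Sharpin and Tifa higher, and these 10 are named after their values were seen. Without any 1 of the SHP099 libraries 0 passed. The median log2 difference of the 52 was 0.06, 0.03 and -0.07, and -0.08, -0.12 and -0.08 after median-of-ratios scaling. For each list, values are log2 differences in a fixed order: the deletion set against wild type, then the inhibitor set against wild type, then the deletion set against the inhibitor.

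The gene that rose was Peli3, a Pellino ligase that acts on IRAK proteins downstream of TLRs. It was at 11.6, 13.8 and 11.7 FPKM in wild type, 16.5, 14.3 and 17.8 FPKM in M-Shp2-/-, and 22.4, 22.7 and 19.96 FPKM with SHP099. Every M-Shp2-/- and SHP099 library lay above every wild-type library. Taken singly, such separation held for 16.0% of all genes in M-Shp2-/- and for 27.9% with SHP099. The share of genes with both together was not counted. With SHP099 the log2 difference from wild type was 0.77 (SE 0.11, adjusted p = 0.0159), and in M-Shp2-/- it was 0.36 (SE 0.13, adjusted p = 0.465). The gene that fell was Nfkb2, whose product p100 is processed to p52 in the noncanonical arm. It was at 276, 247 and 272 FPKM in wild type, 207, 206 and 193 FPKM in M-Shp2-/-, and 170, 175 and 178 FPKM with SHP099, with no overlap among the groups. Both groups lay below wild type for 1.90% of all genes. Nfkb2 fell by 0.60 with SHP099 (SE 0.08, adjusted p = 0.0131), and M-Shp2-/- differed from wild type by -0.39 (SE 0.09, adjusted p = 0.388). Leaving out any SHP099 library ended both calls, with adjusted p of 0.0502 to 0.109 for Peli3 and 0.0533 to 0.0843 for Nfkb2. Without a filter on low FPKM Peli3 had an adjusted p of 0.0599.

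Other ubiquitin ligases of the pathway, the list of Peli3, had 6 of 7 genes tested and medians of 0.20, 0.16 and -0.21 (0.06, 0.02 and -0.23 after median-of-ratios scaling). Peli2 differed by 0.29, 0.62 and -0.32, and Peli1, the Pellino gene that is itself an NF-κB target, by -0.28, -0.09 and -0.19. The noncanonical arm, the list of Nfkb2, had all 4 genes tested and medians of 0.07, 0.14 and -0.05 (-0.08, -0.00 and -0.06 after the scaling). Relb, the partner of p52, differed by 0.03, 0.24 and -0.21, and Map3k14, the gene of NIK, by 0.13, 0.31 and -0.18. Nfkb2 and these genes therefore had estimates of opposite sign with SHP099. Other TRAF proteins had 3 of 4 genes tested and medians of 0.18, 0.04 and 0.08 (0.02, -0.03 and 0.07 after the scaling). Traf6, the ligase of MyD88 signalling, differed by -0.23, -0.30 and 0.08, and with median-of-ratios scaling it fell with SHP099 by 0.44 (adjusted p = 0.0371). Traf4 differed by 0.23, 0.04 and 0.19.

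The A20 partners, which include the ligase Itch and the adaptor Tax1bp1, had all 4 genes tested, with 0 called and medians of 0.06, 0.08 and -0.02 (-0.10, -0.06 and -0.03 after median-of-ratios scaling). Rnf11 differed by 0.18, 0.15 and 0.03, and Tnip2, the gene of ABIN2, by -0.05, 0.06 and -0.11. LUBAC and its adaptor, again 4 of 4 tested and 0 called, had medians of 0.00, 0.16 and -0.13 (-0.15, 0.02 and -0.14 after the scaling). Rnf31, the catalytic subunit HOIP, differed by -0.37, -0.30 and -0.07, and Rbck1, the subunit HOIL-1, by 0.15, 0.34 and -0.19. With SHP099 the genes of this list had estimates of both signs on either scaling. Other deubiquitinases, 8 of 8 tested and 0 called, had medians of 0.04, 0.14 and -0.05 (-0.11, 0.01 and -0.06 after the scaling). Otud1 was near the floor of the set at 1.08 to 2.86 FPKM and differed by -0.03, 0.42 and -0.45, and Usp21 by 0.28, 0.15 and 0.13.

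Ubiquitin-conjugating enzymes, 3 of 4 tested and 0 called, had medians of -0.00, -0.08 and 0.20 (-0.16, -0.22 and 0.19 after median-of-ratios scaling). Ube2n, the gene of UBC13, differed by -0.01, -0.21 and 0.20, and Ube2l3, which serves LUBAC, by 0.16, -0.08 and 0.24. Ubiquitin readers and kinases, which carry the signal from chains to IKK and TAK1, were 9 of 9 tested with 0 called and medians of 0.07, 0.07 and -0.03 (-0.07, -0.07 and -0.04 after the scaling). Ikbkg, the gene of NEMO, differed by 0.54, 0.57 and -0.03, and Ripk2 by -0.17, 0.39 and -0.56. TRAF-binding adaptors, 7 of 7 tested and 0 called, had medians of -0.01, 0.01 and -0.14 (-0.17, -0.13 and -0.15 after the scaling). Tifa differed by 0.06, 0.41 and -0.35. Ikbke, the kinase partner of TANK, differed by 0.05, -0.30 and 0.35, and with median-of-ratios scaling it fell with SHP099 by 0.45 (adjusted p = 0.0194). The list called IκB feedback genes (Nfkbia, Nfkbib, Nfkbie and Nfkbiz) was 4 of 4 tested with 0 called. Its medians were -0.25, -0.04 and -0.19 (-0.41, -0.18 and -0.20 after the scaling). Nfkbia was at 439 to 622 FPKM in wild type, 397 to 440 FPKM in M-Shp2-/- and 429 to 535 FPKM with SHP099, and Nfkbiz differed by -0.45, -0.03 and -0.43.

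**Figure D5:**
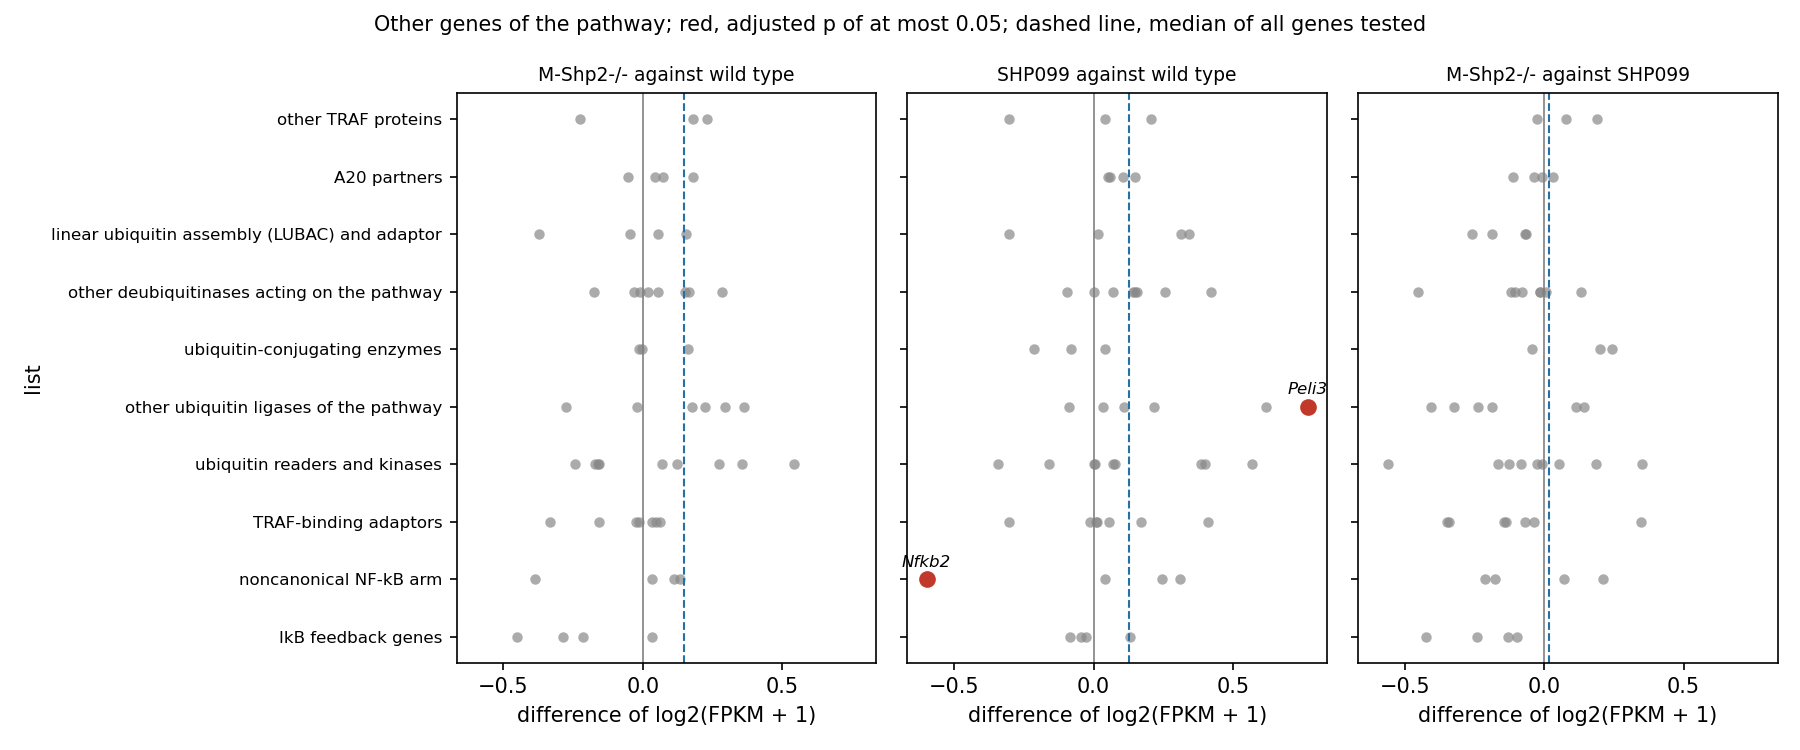
Difference of log2(FPKM + 1) between groups (x axis) for 52 other genes of the pathway in 10 lists (y axis), by comparison; red marks an adjusted p of at most 0.05 and the dashed line is the median over 11450 genes. Peli3 at 0.77 and Nfkb2 at -0.60, both with SHP099 against wild type, are the genes in red.

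Without M-Shp2-/- replicate 3, which lifted the share of all genes called between M-Shp2-/- and SHP099 to 19.9%, 13 of the 52 pathway genes passed beside Tnfaip3, Traf1 and Otulin, 8 lower and 5 higher in M-Shp2-/-. They included Nfkb2 at 0.25 (adjusted p = 0.0291) and Peli3 at -0.47 (adjusted p = 0.0223). Ripk2, the kinase of NOD signalling, then differed by -0.67 (adjusted p = 0.00346), Nfkbiz, the gene of the atypical IκBζ, by -0.61 (adjusted p = 0.00809) and Ikbkb, the gene of IKKβ, by 0.46 (adjusted p = 0.00765). These 3 were the smallest adjusted p-values among the pathway lists and were picked after their values were seen.

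Genes with the closest pattern over the 9 libraries were found by the mean absolute difference of centred log2(FPKM + 1), which says nothing of shared control. For Tnfaip3 they were Sirpb1b (0.0824), Ttc39c (0.0865), Parp14 (0.1002), Rab11fip1 (0.108) and Sipa1l1 (0.111), where the median over all genes was 0.423. For Traf1 they were 6530409C15Rik (0.0796), Btg1 (0.0805), Mdfic (0.0827), Igf2bp1 (0.0837) and again Ttc39c (0.0948), with a median of 0.352. Ttc39c was thus on both lists, and the profiles of Tnfaip3 and Traf1 share the high replicate 3 of each group. For Birc3, a flatter profile, they were Fam53c (0.0396), Sde2 (0.0418), Ccm2 (0.0451), Eif3h (0.0453) and Arf6 (0.0464), with a median of 0.218.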

How the data were processed

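RNA sequencing libraries (poly-A, NEBNext Ultra, paired-end) were made by the authors from peritoneal macrophages. The submitters' processing notes name CASAVA 1.8, HISAT2 2.0.4 and HTSeq 0.9.1. The deposited values are FPKM per gene and library; the genome build, the strand setting and the tool that made the FPKM are not given in the sources used here. Symbols were matched through GENCODE M21. FPKM steps gave the depth of each library, 39842591 to 50980864 reads, and 96.2% to 96.7% of values of up to 50 reads were whole within 0.05 reads, so that 98.4% to 98.7% of the depth was recovered.

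Groups were compared in pairs, 3 against 3 libraries, with limma 3.58.1 (R 4.3.3; lmFit and eBayes with trend) on log2(FPKM + 1) for genes with a mean of at least 1 FPKM, with Benjamini-Hochberg adjustment over all of them and a threshold of 0.05; differences on this scale understate those of low genes. At the study's thresholds, an adjusted p of 0.005 and an absolute log2 fold change of 1, the genes passing were 1, 19 and 0. Log2 ratios of FPKM + 1 within libraries were compared by exact permutation (Python 3.11.15). Scripts were tested on simulated data. Alternatives were the pseudocount, the filter, median-of-ratios scaling, eBayes without trend, a joint fit, a replicate block, voom on recovered reads and leaving out each library. The 10 genes and all lists were chosen with earlier results of these data known. The genes named were the 10, Ptpn11, Il6, markers of cell types, and all genes of the pathway lists called with all libraries. To these were added up to 2 further genes per list with the largest absolute log2 difference, and the 5 tested genes closest in pattern to Tnfaip3, Traf1 and Birc3. Genes named from fits that left out a library were picked after their values were seen. Alternatives for Peli3, Nfkb2, Ptpn11, Il6 and the count of pathway genes passing were added after the data were seen. Promoter windows are from RefSeq (GRCm38.p6).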

Additional observations from a re-analysis of the deposited data

Results flagged for a closer look

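Ptpn11 stood out because the deletion and the inhibitor, each set against the same wild-type libraries, differed in it. Between M-Shp2-/- and SHP099 its log2 difference was -1.13 (95% confidence interval -1.31 to -0.95, adjusted p = 0.0109, limma), and all 3 M-Shp2-/- libraries were below all 3 SHP099 libraries. The adjusted p was 0.0534 to 0.115 when any library other than M-Shp2-/- replicate 3 was left out. A block on the replicate number also ended the call (adjusted p = 0.146, limma).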

How the results depend on the processing

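None of the 10 genes was called in any comparison under any alternative, except in M-Shp2-/- against SHP099 without M-Shp2-/- replicate 3; leaving out libraries gave 0 to 3 there. Of 450 values of the 10 genes under alternatives, 425 kept their direction and side of the threshold, 22 changed sign and 3 passed the threshold. The causes were not tested.

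Median-of-ratios scaling, which lowers the differences from wild type by about the shift of all genes, turned Cyld (-0.0081), Birc2 (-0.044) and Otulin (-0.10) in M-Shp2-/- against wild type, Birc3 (-0.12), Traf1 (-0.13), Birc2 (-0.041) and Traf2 (-0.070) in SHP099 against wild type, and Birc2 (-0.0034) in M-Shp2-/- against SHP099. Leaving out a library turned the sign within these ranges: in M-Shp2-/- against wild type, Traf2 from -0.085 to 0.026, Otulin from -0.088 to 0.15 and the log2 ratio of Tnip3 to Tnip1 from -0.0093 to 0.12; in SHP099 against wild type, Tnfaip3 from -0.47 to 0.018, Birc3 from -0.051 to 0.13, Traf1 from -0.15 to 0.18 and the log2 ratio of Traf1 to Traf2 from -0.17 to 0.046; in M-Shp2-/- against SHP099, Tnip1 from -0.038 to 0.030, Birc2 from -0.042 to 0.060 and Traf3 from -0.085 to 0.059.

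The number of all genes passing was less stable. In M-Shp2-/- against wild type (10 genes) it was 6 with eBayes without trend, and 1 to 8 when leaving out a library. In SHP099 against wild type (797 genes) it was 74 without a filter on low FPKM, where more genes were tested, and 47 to 1273 when leaving out a library. In M-Shp2-/- against SHP099 (8 genes) it was 3 without the filter, 17 with a minimum of 5 FPKM, 3 with all 9 libraries in a joint fit, 14 with voom, and 0 to 2277 when leaving out a library. Of the 52 pathway genes, 2 passed in SHP099 against wild type, beside 6.96% of all genes. There 4 passed with median-of-ratios scaling (5.02% of all genes) and 4 with all 9 libraries in a joint fit (6.77%). With a minimum of 5 FPKM 5 of 49 tested passed (10.7% of all genes), and without the filter 1 of 55 tested (0.278%). Leaving out a library gave 0 to 10 (0.410% to 11.1% of all genes). In M-Shp2-/- against SHP099 0 passed, and 0 to 13 when leaving out a library (up to 19.9% of all genes). Blocking on the replicate number, all genes passing were 2, 591 and 0, and 0 of the 10 genes passed. The numbers are not pairs by the labels, and same-numbered libraries of wild type and M-Shp2-/- deviated with correlations of 0.49, -0.43 and 0.19. Between wild type and SHP099 these were -0.04, -0.09 and 0.45, and between M-Shp2-/- and SHP099 -0.01, 0.18 and -0.05. The libraries are therefore taken to share only a number. The adjusted p of Ptpn11 in M-Shp2-/- under the block was 0.157 against wild type and 0.146 against SHP099. With 3 libraries a group, a difference that did not pass is not shown to be absent.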
